A study of Rattus norvegicus with 12 samples.

Results

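The G1 cyclins, CDKs and CDK inhibitors examined here are 10 genes that govern entry into the cell cycle, namely the D-type cyclins Ccnd1, Ccnd2 and Ccnd3, the kinases Cdk4, Cdk6 and Cdk2, the inhibitors Cdkn2c, Cdkn1a and Cdkn1b, and the retinoblastoma gene Rb1. They were taken by symbol, with earlier results of these data known, and all 10 were found, each as a single row, among the 30562 Ensembl genes of the count table. Bulk RNA-seq was done on primary oligodendrocyte precursor cells (OPCs) cultured from the cerebral cortex of wild-type newborn Sprague-Dawley rats (postnatal day 1 or 2), and gene counts were compared between 6 libraries of OPCs kept at 5% FiO2 (mild-hypo-OPCs) and 6 libraries of OPCs kept in room air (standard OPCs). The labels give the exposure as 6 hours and the study's methods as 6 days. Both groups were grown in medium with PDGF-AA and FGF-2, which are OPC mitogens, and how many animals or cultures were pooled per library was not given in the sources used here. The study counts fewer biological replicates per group than the 6 libraries deposited, so that some libraries may share a culture, and each SD, interval and p-value below describes the spread between libraries. The study asked whether mild hypoxia shifts OPCs towards maturation, and these genes show the state of the machinery that a precursor uses to choose between division and cell cycle exit.

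In G1, mitogens raise the D-type cyclins, which bind and activate the kinases CDK4 and CDK6. These complexes, and later cyclin E with CDK2, phosphorylate RB1 and release E2F transcription factors, which switch on the genes of DNA replication. INK4 proteins, such as the p18 product of Cdkn2c, bind CDK4 and CDK6, whereas the CIP/KIP proteins p21 (Cdkn1a) and p27 (Cdkn1b) act on cyclin-CDK complexes more broadly, and p27 is known for its part in the cell cycle exit that precedes oligodendrocyte differentiation. Much of this control acts on the proteins, through phosphorylation and degradation, and is not visible in RNA counts.

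Libraries held 4111669 to 9022324 counts in mild-hypo-OPCs but 1356079 to 2797513 in room air, so that depth and condition cannot be told apart. Values are given as CPM, counts scaled to a common library size with edgeR's TMM factors, and a positive log2 fold change means a higher level in mild-hypo-OPCs. A gene is described as called when its adjusted p was under 0.05 in edgeR's quasi-likelihood test. That test covered 8938 genes, those whose CPM before TMM scaling exceeded 10 in 1 library or more. All 7 OPC markers examined were measured in every library, and their summed level was 3726 to 4326 CPM in mild-hypo-OPCs and 3083 to 3827 CPM in standard OPCs, with 1 of 7 (Gpr17) called higher. Markers of other cells were present as well, and their calls stand beside the 7.0% of all genes tested that were called higher. The 6 oligodendrocyte markers summed to 12546 to 13818 CPM in mild-hypo-OPCs and 8596 to 12397 CPM in standard OPCs, with 4 of 6 called higher, and the 6 astrocyte markers to 806 to 938 and 725 to 843 CPM, with 2 of 5 tested called higher. The 6 neuronal markers summed to 231 to 253 and 167 to 211 CPM, with 1 of 4 tested called higher. The 6 microglial markers summed to 25.3 to 32.9 and 9.20 to 23.9 CPM. Only Csf1r among them was tested, and it was called higher, while Cx3cr1, Itgam and Tmem119 were at 0 in some libraries. The 5 mesenchymal and endothelial markers found stayed at or below 3.02 CPM in every library. The part of these cells in the G1 gene levels was not tested, and in bulk samples fewer cells of a type and less RNA per cell cannot be told apart.

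No difference between mild-hypo-OPCs and standard OPCs was called for any G1 gene. Of the 10 genes, 9 were tested, Cdk6 being below the filter, and 0 of the 9 were called, against 24.0% of all genes tested (7.0% higher and 17.0% lower). At an unadjusted p under 0.05 there was 1 of 9, Cdk4, against 36.3% of all genes. limma-voom and DESeq2 also called 0 of 9, against 22.3% and 25.9% of all genes, with 1 of 9 at an unadjusted p under 0.05 in each. The groups overlapped for each of the 10 genes, whereas they did not overlap for 8.35% of all genes tested. The 9 fold changes were small, with 6 above and 3 below 0, a median of 0.09 and a median size of 0.15 on the log2 scale, where all genes tested had a median of -0.00 and a median size of 0.19. The largest among the 9 was a fall by 0.23 for Cdk4.

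**Figure D1:**
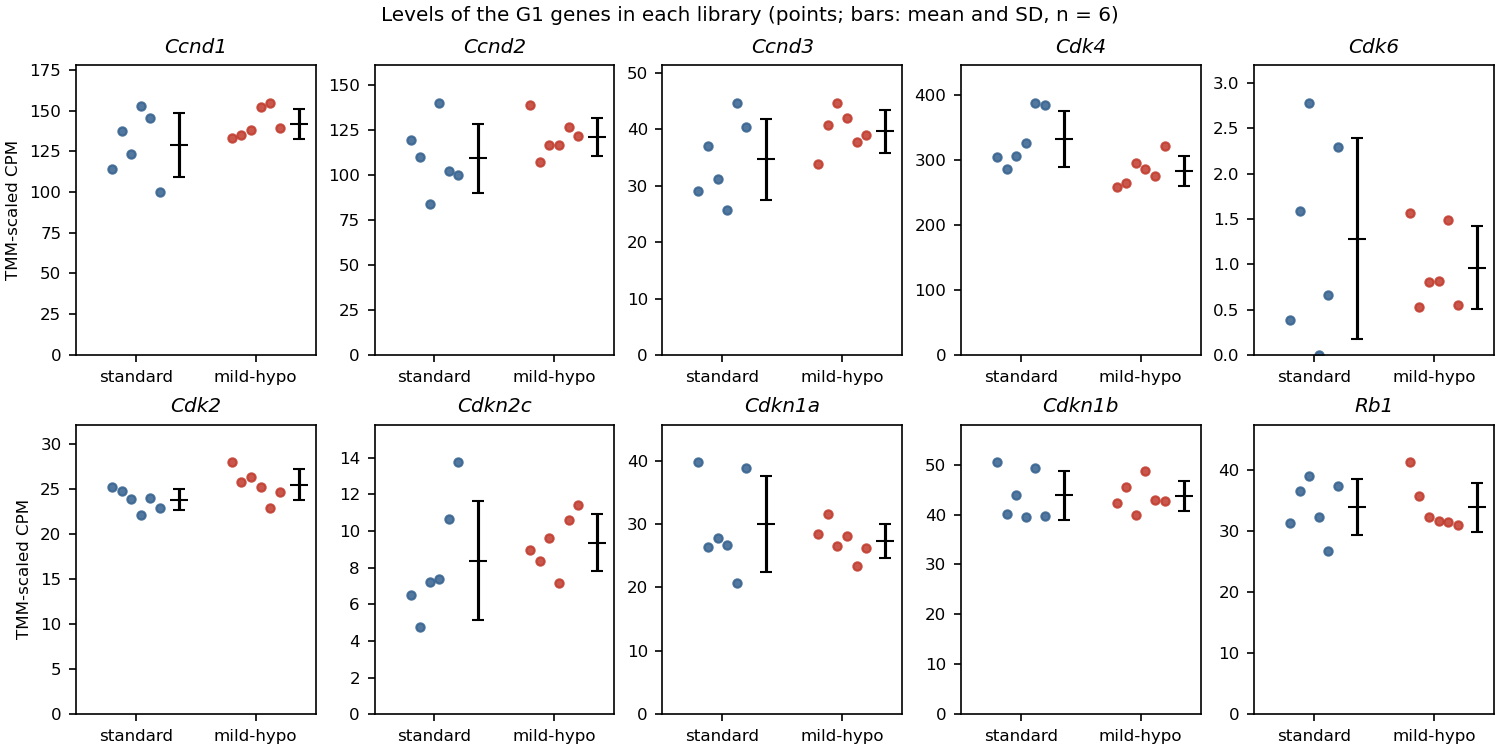
TMM-scaled CPM (vertical axes, linear, from 0) of the 10 G1 genes in each of 6 standard OPC (blue) and 6 mild-hypo-OPC (red) libraries, with points in the order of the replicate numbers and the mean and SD beside them. The groups overlap in every panel. For Cdk4, 4 of 6 mild-hypo-OPC libraries lie below all standard OPC libraries, and Cdk6 stays under 3 CPM.

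The D-type cyclins are the mitogen-responsive end of the pathway. Ccnd1 (ENSRNOG00000020918), the cyclin D1 gene, had 133, 138 and 155 CPM (lowest, median and highest library) in mild-hypo-OPCs and 100.002, 130 and 153 CPM in standard OPCs. The groups overlapped, although each of 6 mild-hypo-OPC values exceeded the mean of standard OPCs and 3 standard OPC libraries lay below every mild-hypo-OPC library. The means were 142 ± 9.15 and 129 ± 19.9 CPM (SD, n = 6 each), a log2 fold change of 0.14 (95% interval -0.05 to 0.34, adjusted p = 0.279 from edgeR). Ccnd2 (ENSRNOG00000062959), the cyclin D2 gene, had 107, 119 and 139 CPM in mild-hypo-OPCs and 84.0, 106 and 140 CPM in standard OPCs. Here 5 of 6 mild-hypo-OPC values exceeded the mean of standard OPCs, and the highest value of all came from standard OPC replicate 4. Its log2 fold change was 0.16 (95% interval -0.05 to 0.37, adjusted p = 0.278 from edgeR).

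Ccnd3 (ENSRNOG00000050258), the cyclin D3 gene, had 33.8, 39.8 and 44.6 CPM in mild-hypo-OPCs and 25.8, 34.1 and 44.7 CPM in standard OPCs, with the highest libraries of both groups at nearly the same level. Its log2 fold change was 0.19 (95% interval -0.06 to 0.44, adjusted p = 0.256 from edgeR). For each of the D-type cyclins the interval thus reached from a small fall to a rise of at most 1.26-fold for Ccnd1, 1.29-fold for Ccnd2 and 1.36-fold for Ccnd3. Values were more spread in standard OPCs, with coefficients of variation of 15.5%, 17.5% and 20.9% for Ccnd1, Ccnd2 and Ccnd3, than in mild-hypo-OPCs, with 6.45%, 8.79% and 9.45%. Counting error alone would give about 7.06%, 7.68% and 13.8% in the shallower standard OPC libraries and 3.42%, 3.74% and 6.46% in mild-hypo-OPCs.

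The proportions among the D-type cyclins, which do not depend on scaling factors, overlapped between the groups. Ccnd1 took 43.6% to 49.0% (median 47.0%) of the D-type cyclin counts in mild-hypo-OPC libraries and 41.6% to 51.7% (median 48.2%) in standard OPC libraries. Ccnd2 took 37.5% to 45.3% and 34.9% to 45.4%, and Ccnd3 took 11.1% to 14.9% and 8.09% to 16.8%. The group means differed by -0.27 percentage points for Ccnd1, 0.05 for Ccnd2 and 0.23 for Ccnd3, each less than the SD of either group. These shares are of counts and not per transcript length, so they compare the groups and not the abundance of the cyclins.

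Among the kinases, only Cdk4 came near the threshold. Cdk4 (ENSRNOG00000025602), a partner kinase of the D-type cyclins, had 258, 281 and 322 CPM in mild-hypo-OPCs and 286, 316 and 388 CPM in standard OPCs. All 6 mild-hypo-OPC libraries lay below the standard OPC mean, 4 of them lay below every standard OPC library, and the ranges overlapped. The means were 284 ± 23.2 and 333 ± 43.7 CPM (SD, n = 6 each), a log2 fold change of -0.23 (95% interval -0.41 to -0.04, standard error 0.09, edgeR adjusted p = 0.0713). Cdk4 was called lower in 3 alternative fits. Without replicate 1 of the standard OPCs it had -0.25 (edgeR adjusted p = 0.0453), where 1664 of 8922 genes were called lower. Without replicate 2 of the standard OPCs it had -0.27 (edgeR adjusted p = 0.0344), where 1604 of 8931 genes were called lower. With replicates 4 to 6 of each group only it had -0.31 (adjusted p = 0.0474 from edgeR), where 15.7% of all genes were called lower. In replicates 1 to 3 it had -0.11 (adjusted p = 0.596 from edgeR).

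The direction of the Cdk4 difference also moved with gene span and scaling. Genes of short span had lower fold changes as a group, and the trend over the 8544 tested genes with a RefSeq span stood at -0.27 for the 3.44 kb of Cdk4, so that subtracting it left 0.04. Without scaling factors Cdk4 had 0.21, when the median of all genes was 0.43. The Cdk4 locus overlaps that of Tspan31 in the RefSeq annotation, and Tspan31 stood at -0.22 on the log2 scale (edgeR adjusted p = 0.110). The libraries were strand-specific, but whether counting used strand is not given in the sources used here. RefSeq also lists 4 Cdk4 pseudogenes, with which reads could be shared, so the Cdk4 level carries that uncertainty.

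The promoter of Cdk4 is printed because Cdk4 lay nearest to the threshold and because this window holds several copies of the E-box CACGTG, the site bound by MYC and related factors, which contains the hypoxia response element core ACGTG on both strands. The capitals mark the E-boxes in the sequence from RefSeq (GRCr8, chr7:64771203-64771502, plus strand, 250 bases before to 50 after the gene's start).
Cdk4 promoter: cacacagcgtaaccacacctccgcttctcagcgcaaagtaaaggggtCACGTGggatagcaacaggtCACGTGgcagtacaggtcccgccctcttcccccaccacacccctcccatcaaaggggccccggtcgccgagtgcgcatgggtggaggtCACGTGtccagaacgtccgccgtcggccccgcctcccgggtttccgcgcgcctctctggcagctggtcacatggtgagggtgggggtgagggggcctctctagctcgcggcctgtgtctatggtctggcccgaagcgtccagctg
Promoter windows were found for 7 of the 10 genes (Ccnd3, Cdk2, Cdk4, Cdkn1a, Cdkn1b, Cdkn2c and Rb1), while Ccnd1, Ccnd2 and Cdk6 had none. Cdk4 held 3 E-boxes and the other 6 held none, where 6.42% of 33469 rat promoters held at least 1 and 0.0568% held 3 or more. The core ACGTG, searched on both strands, was found in Cdk2, Cdk4 and Rb1, 3 of 7, against 19.3% of all promoters, and its 6 matches in Cdk4 all lay within the E-boxes. A match describes the letters in the window and was not tested for binding, and Myc itself had 96.4 and 93.9 CPM in mild-hypo-OPCs and standard OPCs.

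Cdk6 (ENSRNOG00000009258), which encodes the other kinase that binds D-type cyclins, was hardly detected. Each mild-hypo-OPC library held 3 to 15 counts of it and each standard OPC library 0 to 5, with 39 and 13 counts in all. Cdk4 accordingly took at least 99.1% of the Cdk4 and Cdk6 counts in each of the 12 libraries. Without the filter Cdk6 stood at -0.30 on the log2 scale with a standard error of 0.54 (edgeR adjusted p = 0.753), so that a difference of that size was not detectable at this depth. Cdk2 (ENSRNOG00000006469), the partner of cyclins E and A, had 22.9, 25.5 and 28.0 CPM in mild-hypo-OPCs and 22.1, 24.0 and 25.2 CPM in standard OPCs. It was the steadiest gene of the set in standard OPCs, with a coefficient of variation of 4.93%, below the 16.5% that counting error alone would give. Of the mild-hypo-OPC libraries, 3 of 6 lay above every standard OPC library, and the log2 fold change was 0.09 (95% interval -0.12 to 0.29, adjusted p = 0.545 from edgeR). Cdk2 overlaps Pmel, which was not called.

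**Figure D2:**
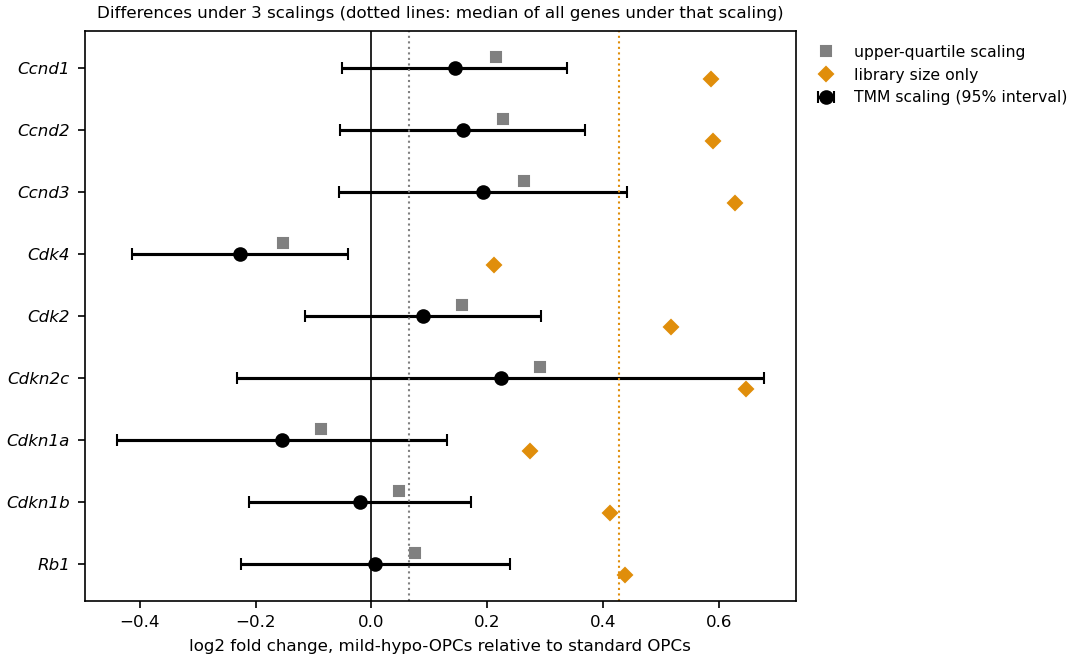
Log2 fold change (horizontal axis, positive where mild-hypo-OPCs are higher) of the 9 G1 genes tested, with TMM scaling and its 95% interval (black), upper-quartile scaling (grey squares) and library size only (orange diamonds). Dotted lines mark the median of all genes at 0.06 and 0.43 under the latter 2 scalings. With TMM every interval but that of Cdk4 includes 0, and with library size only the value of Cdk4 turns from -0.23 to 0.21 and that of Cdkn1a from -0.15 to 0.27.

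The cyclins and their kinase were also compared within each library, by a ratio chosen after the values were seen and therefore given without a test. Per 100 Cdk4 counts, mild-hypo-OPC libraries had 93.0 to 118 D-type cyclin counts (median 108) and standard OPC libraries had 62.4 to 99.3 (median 82.2). Of the 6 mild-hypo-OPC libraries, 5 lay above every standard OPC library, and replicate 6 at 93.0 did not. The means were 107 ± 9.36 and 83.2 ± 14.2 (SD, n = 6 each). For Ccnd1 alone the ratio was 43.2 to 56.1 and 25.9 to 48.0, with 4 mild-hypo-OPC libraries above every standard OPC library. For Ccnd2 it was 37.8 to 53.7 and 25.9 to 42.9, with 2 mild-hypo-OPC libraries above. The ratio needs no scaling factor, but it carries the span trend given above, which stood at -0.10, -0.01 and 0.07 for Ccnd1, Ccnd2 and Ccnd3 and at -0.27 for Cdk4. With the trend subtracted, Ccnd1, Ccnd2 and Ccnd3 had log2 fold changes of 0.25, 0.16 and 0.12, and Cdk4 had 0.04.

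**Figure D3:**
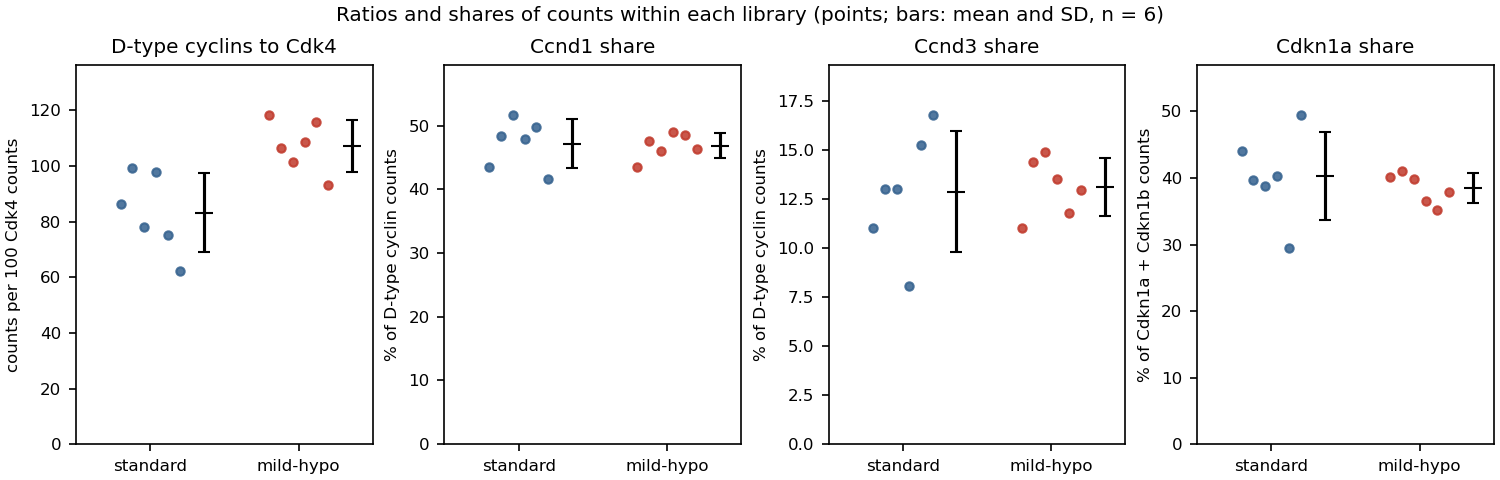
Ratios and shares of counts within each library (vertical axes from 0) for 6 standard OPC (blue) and 6 mild-hypo-OPC (red) libraries, with mean and SD. From left to right are the D-type cyclin counts per 100 Cdk4 counts, the shares of Ccnd1 and of Ccnd3 in the D-type cyclin counts, and the share of Cdkn1a in the Cdkn1a and Cdkn1b counts. The first ratio has means of 107 in mild-hypo-OPCs and 83.2 in standard OPCs, and the groups overlap in every panel.

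The inhibitors did not move as a group. Cdkn2c (ENSRNOG00000008956), the p18 INK4 gene, had 7.17, 9.30 and 11.4 CPM in mild-hypo-OPCs and 4.75, 7.30 and 13.7 CPM in standard OPCs. The range of standard OPCs enclosed that of mild-hypo-OPCs, and the standard OPC libraries held only 8 to 18 counts each. Its log2 fold change of 0.22 had the widest interval of the set, -0.23 to 0.68 (adjusted p = 0.491 from edgeR), and it was 0.56 in replicates 1 to 3 and -0.12 in replicates 4 to 6.

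Cdkn1a (ENSRNOG00000000521) encodes p21, which halts the cycle after damage and is also expressed during differentiation. It had 23.4, 27.3 and 31.6 CPM in mild-hypo-OPCs and 20.7, 27.2 and 39.8 CPM in standard OPCs. The medians were nearly equal, and only standard OPC replicates 1 and 6, at 39.8 and 38.9 CPM, lay above every mild-hypo-OPC library. The log2 fold change was -0.15 (95% interval -0.44 to 0.13, adjusted p = 0.439 from edgeR).

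Cdkn1b (ENSRNOG00000007249), the p27 gene, had 40.0, 42.9 and 48.8 CPM in mild-hypo-OPCs and 39.6, 42.0 and 50.5 CPM in standard OPCs. The groups covered the same range, with means of 43.7 ± 3.03 and 43.9 ± 4.96 CPM (SD, n = 6 each). The log2 fold change was -0.02 (adjusted p = 0.899 from edgeR), and the 95% interval of the ratio was 0.863 to 1.13 under TMM scaling. Cdkn1a took 35.3% to 41.0% of the Cdkn1a and Cdkn1b counts under mild hypoxia and 29.5% to 49.5% under room air, with means of 38.5% and 40.3%. Per 100 Cdk2 counts Cdkn1b had 151 to 193 counts under mild hypoxia and 162 to 206 under room air.

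Rb1 (ENSRNOG00000016029), the substrate on which the cyclin-CDK complexes converge, had 31.0, 31.9 and 41.2 CPM in mild-hypo-OPCs and 26.7, 34.3 and 38.9 CPM in standard OPCs. Mild-hypo-OPC replicate 1, the deepest library, was the highest of all, and the other mild-hypo-OPC libraries lay within the standard OPC range. The means were both 33.8 CPM, with a log2 fold change of 0.01 (95% interval -0.23 to 0.24, adjusted p = 0.973 from edgeR). Rb1 is itself an E2F target in textbooks, and its promoter was the only one of the 7 windows with the E2F element TTTCCCGC (searched on both strands), which 0.974% of all promoters held. Rb1 overlaps Lpar6, which had at most 23 counts in any library and was not tested. The E2F element is in capitals (RefSeq, GRCr8, chr15:54911808-54912107, minus strand).
Rb1 promoter: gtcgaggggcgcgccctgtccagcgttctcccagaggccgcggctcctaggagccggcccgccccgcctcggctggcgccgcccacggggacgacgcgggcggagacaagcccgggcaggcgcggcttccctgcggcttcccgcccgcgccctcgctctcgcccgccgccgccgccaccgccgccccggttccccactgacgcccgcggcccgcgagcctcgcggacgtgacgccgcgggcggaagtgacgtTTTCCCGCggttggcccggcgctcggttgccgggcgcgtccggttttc

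The rest of the G1 pathway was read from a list of 46 genes, of which 36 were tested. Of these, 0 were called higher and 7 lower, 19.4% against the 17.0% of all genes called lower and the 24.0% called in either direction, and the list's median log2 fold change was -0.02. Cyclin E and cyclin A genes, which act after the D-type cyclins, were not called, with 0.07 for Ccne1, 0.08 for Ccne2 and -0.01 for Ccna2. Among the relatives of Cdkn2c, Cdkn2d (p19 INK4) was called lower, with 25.9, 28.3 and 38.7 CPM in mild-hypo-OPCs and 25.6, 49.0 and 58.8 CPM in standard OPCs and a log2 fold change of -0.51 (adjusted p = 0.0408 from edgeR). When each library was left out in turn, Cdkn2d stayed called in 4 of 12 fits. Cdkn2b (p15 INK4) had -0.37 (adjusted p = 0.105 from edgeR), Cdkn2a was below the filter with 6 to 38 counts per library, and Cdkn1c, the p57 gene, had -0.03 (adjusted p = 0.818 from edgeR).

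Downstream of RB1, the E2F factors and their partners differed from one another. E2f5, a repressive E2F that works with pocket proteins, was called lower (log2 fold change -0.56, edgeR adjusted p = 0.000944). Its groups did not overlap, with 20.8 to 25.6 CPM in mild-hypo-OPCs and 27.8 to 40.5 CPM in standard OPCs. In the list the groups did not overlap for 2 of the 36 genes tested, E2f5 and Mxd4, against 8.35% of all genes. Tfdp1, the dimerization partner of E2F factors, was called lower with -0.33 (adjusted p = 0.0115 from edgeR). E2f5 and Tfdp1 stayed called whichever library was left out. E2f3, E2f4 and E2f6 had 0.30, 0.14 and 0.18 and were not called, nor was the pocket protein gene Rbl2 with -0.08. E2f1, E2f2, E2f7, E2f8, Tfdp2 and the pocket protein gene Rbl1 were below the filter, at 17 to 25, 9 to 32, 30 to 62, 22 to 43, 15 to 44 and 35 to 68 counts per mild-hypo-OPC library. The other genes called lower were Cdkn3, a phosphatase that acts on CDK2 and CDK1 (-0.73), Cks1b, a CDK-binding subunit (-0.44), Mnat1, an assembly factor of the CDK-activating kinase (-0.41), and Mxd4, a MAX-binding antagonist of MYC (-0.22). With each library left out in turn, Cdkn3 stayed called in 11 of 12 fits, Cks1b in 4, Mnat1 in 2 and Mxd4 in 3, and DESeq2 did not call Mnat1 (adjusted p = 0.0748). With library size only, 25 of the 36 genes were called higher, against 61.7% of all genes, and 0 lower. With upper-quartile scaling 3 were called lower, against 1255 of all 8938 genes tested.

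Some of the genes that E2F switches on were called higher. In a list of 26 E2F targets, 22 were tested, 8 were called higher and 0 lower, 36.4% against the 7.0% of all genes called higher and the 24.0% called in either direction. The groups did not overlap for 5 of the 22, against 8.35% of all genes. The list's median log2 fold change was 0.34, against -0.00 for all genes. Genes of replication licensing were among them. Mcm6 had 31.4, 34.1 and 37.7 CPM in mild-hypo-OPCs and 14.0, 20.4 and 30.1 CPM in standard OPCs (log2 fold change 0.65, adjusted p = 0.00205 from edgeR), and Mcm2, Mcm5 and Mcm4, which encode further subunits of the same helicase, rose by 0.57, 0.62 and 0.46. Cdt1, the licensing factor that loads it, had 6.42 to 10.7 CPM in mild-hypo-OPCs and at most 5.52 CPM in standard OPCs. Its log2 fold change was 1.03 (adjusted p = 0.00679 from edgeR), although the standard OPC libraries held only 3 to 12 counts of it. Cdt1 passed the filter only through mild-hypo-OPC libraries, its higher group. It is among the 8 called and the 5 without overlap, and adds no support of its own to those counts. Uhrf1, which maintains DNA methylation at replication forks, the ribonucleotide reductase subunit Rrm2 and the topoisomerase Top2a rose by 0.71, 0.37 and 0.43. Other targets were not called, with -0.10 for Pcna, -0.01 for Cdk1 and -0.19 for Mki67, a marker of cycling cells. Mcm3 and Mcm7, which encode subunits of the same helicase as Mcm6, had 0.36 and 0.17 and were not called either (adjusted p = 0.243 and 0.356 from edgeR). The 8 calls were lost with log2 total count as a covariate, when 0 were called, and 19 of 22 genes were called higher with library size only, against 61.7% of all genes.

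**Figure D4:**
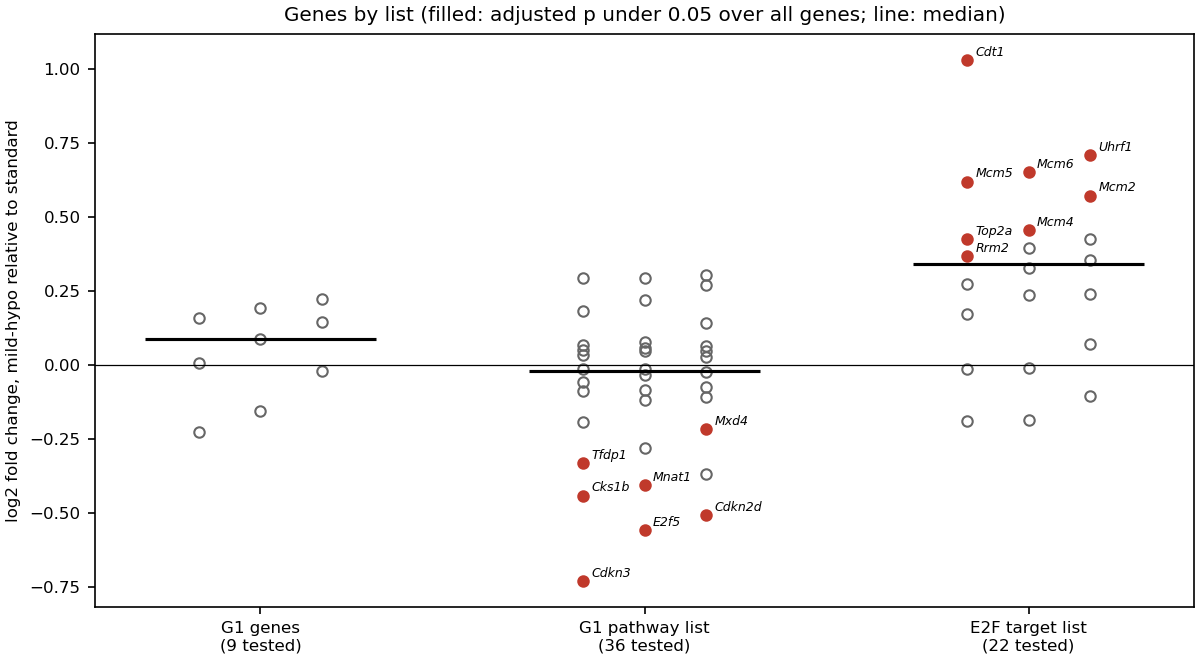
Log2 fold change (vertical axis, positive where mild-hypo-OPCs are higher, TMM scaling) of the 9 G1 genes tested and of the tested genes of the G1 pathway and E2F target lists, with called genes filled and named and a line at each median. No G1 gene is called, and 7 pathway genes are called lower (0 with library size only). Of the E2F targets, 8 are called higher. With total count in the model, 0 of them and 0 of all genes are called higher.

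The absence of calls among the G1 genes depended on scaling factors being applied and, for Cdk4, on which libraries were included. In 21 of 25 alternative fits no G1 gene was called, the others being the 3 fits that called Cdk4 and the fit with library size only. That fit called 7 of the 9 genes higher, Ccnd1, Ccnd2, Ccnd3, Cdk2, Cdkn2c, Cdkn1b and Rb1, against 61.7% of all genes, and the median of all genes was then 0.43. Relative to that median the D-type cyclins had 0.16, 0.16 and 0.20 and Cdk4 had -0.22, close to their values under TMM scaling.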

How the data were processed

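Per the labels, the authors trimmed reads with Trimmomatic 0.36, checked them with FastQC 0.11.9, aligned them with STAR 2.7.9a (build mRatBN7.2) and used RSEM 1.3.3 for gene quantification. The deposited table holds whole-number counts per Ensembl gene for 12 libraries, without normalization, and how RSEM's estimates were made whole is not given in the sources used here. Groups and replicate numbers came from the library titles. No library repeated another (the lowest chi-square per degree of freedom between libraries of a group was 3.97), so each was counted as 1 replicate. The study's figure legend gives 3 biological replicates per group, the labels do not say which of the 6 libraries share a culture, and p-values then measure only the spread between these libraries.

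The filter kept genes whose CPM before TMM scaling exceeded 10 in 1 library or more. TMM factors were 1.08 to 1.23 in mild-hypo-OPC libraries and 0.81 to 0.95 in standard OPC libraries. At equal scaled CPM, mild-hypo-OPC libraries thus passed the filter more readily. TMM factors, glmQLFit and glmQLFTest (edgeR 4.0.16, R 4.3.3) were applied to a model of condition alone, and p-values were adjusted by Benjamini-Hochberg over all genes kept. The standard error is the one implied by the F statistic, and the 95% interval uses its degrees of freedom. The expected counting error is the root mean of the inverse counts and covers counting error only. Alternatives were limma-voom (limma 3.58.1), DESeq2 1.42.0, other scalings and filters, the replicate block, subsets of libraries, total count as a covariate, thinning and summing rows that share a symbol. The span trend (lowess, fraction 0.3) used RefSeq spans matched by symbol for 95.6% of the genes tested. The scripts were tested on simulated data.

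The G1 genes and the lists, the latter assembled from general knowledge, were chosen with earlier results of these data known. Named genes are all G1 genes, the called genes of the lists, and the E2F and pocket protein genes. Any further gene was picked with its values in view. For a called G1 gene the 2 genes with the closest profile were to be named, and no G1 gene was called. A further gene list that had been planned is not reported here. Transcript lengths and protein sequences were not used here, so levels are not compared between genes.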

Additional observations from a re-analysis of the deposited data

How the results depend on the processing

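The limits are mainly of depth and scaling. Standard OPC libraries held 1356079 to 2797513 counts, and Cdkn2c and Cdk6 were measured there with at most 18 and 5 counts per library. Ccnd1, Ccnd2 and Ccnd3 kept their positive direction in 25 of 25 alternative fits, Cdk4 was negative in 23, Cdkn1a in 24 and Cdk2 positive in 24, Cdkn2c was positive in 23 of 24, and Cdkn1b and Rb1, both near 0, were positive in 11 and 18 of 25. The cause of each change listed here was not tested.

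With library size only, 7 G1 genes were called higher, with log2 fold changes of 0.59 for Ccnd1, 0.59 for Ccnd2, 0.63 for Ccnd3, 0.52 for Cdk2, 0.65 for Cdkn2c, 0.41 for Cdkn1b and 0.44 for Rb1, while Cdk4 and Cdkn1a turned to 0.21 and 0.27 without a call (edgeR adjusted p = 0.0889 and 0.0953). Over all genes 5515 were then called higher and 405 lower, in the G1 pathway list 25 and 0, and in the E2F target list 19 higher. With upper-quartile scaling 1136 genes were called higher and 1255 lower. In that fit 9 E2F targets were called higher and 3 G1 pathway genes lower, and Cdkn1b had 0.0486. With log2 total count as a covariate, 0 genes were called higher and 43 lower, 0 in the E2F target list and 0 lower in the G1 pathway list, and Cdk4, Cdk2 and Rb1 turned to 0.12, -0.15 and -0.38.

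With replicates 4 to 6 only, 1 G1 gene (Cdk4, -0.31) was called lower, and Cdkn2c, Cdkn1b and Rb1 turned to -0.12, 0.06 and -0.0210. With replicates 1 to 3 only, 53 genes were called higher and 343 lower. Thinning to the smallest total called 409 genes higher and turned Cdkn1b to 0.20 and Rb1 to -0.0734, and without the filter Cdkn1b was 0.0138. Subtracting the span trend, an alternative chosen after seeing the data, gave 0.25 for Ccnd1 and 0.23 for Cdk2 and turned Cdk4, Cdkn1b and Rb1 to 0.0435, 0.18 and -0.0550.

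Leaving out each library in turn gave 0 to 1 G1 genes called lower, 436 to 823 genes called higher and 1165 to 1664 lower over all, 0 to 1 G1 pathway genes higher and 2 to 7 lower, and 8 to 9 E2F targets higher. The log2 fold change then lay between 0.09 and 0.19 for Ccnd1, 0.09 and 0.23 for Ccnd2, 0.13 and 0.27 for Ccnd3, -0.27 and -0.17 for Cdk4, 0.07 and 0.15 for Cdk2, 0.10 and 0.39 for Cdkn2c, -0.24 and -0.03 for Cdkn1a, -0.0498 and 0.0326 for Cdkn1b, and -0.0493 and 0.0573 for Rb1.

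The replicate numbers showed no consistent pairing of the libraries, and this check cannot show which libraries share a culture. Same-numbered libraries of the groups had correlated deviations in replicates 1 and 6 (0.30 and 0.21) and not in the others (-0.28 to 0.06), and 1 of 6 matched its own number best. With the replicate block, 572 genes were called higher and 1471 lower and 0 G1 genes were called, with -0.22 for Cdk4 (adjusted p = 0.0590 from edgeR).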

Other observations

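The MYC network and the regulators of D-type cyclin stability, which feed into the G1 genes, were read from the same G1 pathway list. Myc had 96.4 and 93.9 CPM in mild-hypo-OPCs and standard OPCs with a log2 fold change of 0.03 (adjusted p = 0.786 from edgeR), and its partner Max had -0.01 (adjusted p = 0.936 from edgeR). Among the genes whose products mark D-type cyclins for destruction or phosphorylate them, Gsk3b had 0.03, Ambra1 -0.06 and Fbxo31 -0.19, and none was called. Skp2, part of the ligase that degrades p27, had 0.30 (adjusted p = 0.210 from edgeR) and Cdc25a, a phosphatase that activates CDK2, 0.29 (adjusted p = 0.201 from edgeR). The DREAM complex genes Lin9, Lin52 and Lin54, which hold cell cycle genes silent in quiescence, had -0.12, -0.09 and -0.03, and the kinase genes Dyrk1a and Dyrk1b had 0.05 and 0.07. With library size only, where the median of all genes was 0.43, Myc and Max were called higher.

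In each of the 38 sets of 6 values examined, from the CPM of the 10 G1 genes and 9 ratios or shares in each group, no library stood apart from the other 5 by Dixon's criterion (0.625 for 6 values).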
